A study of Mus musculus with 18 samples.

Results

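The cell cycle genes and CDK inhibitors described here were 40 genes, taken from a written list and matched by symbol to the Ensembl ids of 2 mouse count tables, each of which holds 78239 genes. They comprised 3 inhibitors of cyclin-dependent kinases (CDKs), 5 cyclins and E2F factors of the G1/S transition, 10 genes of DNA replication, 4 genes of nucleotide supply, repair and chromatin, 11 regulators of G2 and mitosis and 7 genes of mitotic structure. The rule that names them uses no measured value, but the list was made with earlier results of these data known. The study expressed *nsHif1a*, a form of mouse *Hif1a* whose protein stays stable and active in normoxia, and measured mRNA in a cell line and in the retina. The questions followed here were whether *nsHif1a* changed the proliferation genes of the cells, and whether replicates 1 and 2 of the cells differed from replicates 3 and 4.

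The line was 661W, a photoreceptor-like line that came from a mouse retinal tumour driven by SV40 large T antigen, a viral protein known to bind the retinoblastoma protein and p53. 661W cells were transfected with a plasmid carrying *nsHif1a* or eGFP behind the CMV promoter and were harvested 20 h later, with 4 libraries per group. For the retina, mice received a subretinal injection between postnatal days 29 and 32 of AAV::*nsHif1a* or AAV::eGFP. In both vectors the transgene was driven by a mouse promoter that restricts it to rods, and retinas were taken 3 weeks post injection (wpi), with 5 libraries per group. The labels give the mice as C57BL/6J, whereas the study's methods describe wild-type 129S6 mice. All groups, the controls included, carried a foreign expression construct, and no untreated sample was compared. The RNA came from unsorted cells and isolated retinas, so cells without the transgene could contribute to every value. The labels do not say whether libraries of 1 group came from separate cultures, and p-values then measure only the spread between these libraries.

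Cells enter the cycle when D-type cyclins and then E-type cyclins activate CDKs, which release E2F factors from the retinoblastoma protein and so switch on genes for DNA replication. Cyclin A and cyclin B with CDK1, together with the Polo and Aurora kinases, then drive G2 and mitosis, and inhibitors such as p21 (*Cdkn1a*), p27 (*Cdkn1b*) and p57 (*Cdkn1c*) restrain the kinases. Rods and the other neurons of the adult retina have left the cell cycle, so that mRNA of proliferation genes in a whole retina can come from glia, vessels or immune cells as well as from neurons. HIF1 is known to affect cell cycle genes in other cell types through hypoxia-response elements and through p53 and MYC, with directions that depend on the cell.

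The libraries held 12898220 to 17809585 counts, and 3 counts corresponded to 0.169 to 0.229 CPM, the count relative to library size after scaling by the TMM method. This limit covers counting error only. *Hif1a*, the gene expressed from the plasmid, was at 150 to 164 CPM in the eGFP cells and at 1222 to 1954 CPM in the *nsHif1a* cells (log2FC 3.26, SE 0.13, limma adjusted p = 1.2e-05). In the retina it was at 638 to 698 CPM in the AAV::eGFP group and at 642 to 729 CPM in the AAV::*nsHif1a* group (log2FC 0.05, SE 0.04, limma adjusted p = 0.50), so it gives no check of the retinal labels. The 661W libraries of 1 group were alike within replicates 1 and 2 and within replicates 3 and 4, with squared differences of 1.48 to 1.62 times the sampling noise, and less alike across these sets, with 3.80 to 9.10 times. *Xist*, a sign of female tissue, had 19492 to 28595 counts in all 5 AAV::*nsHif1a* retinas and in libraries 1 and 2 of AAV::eGFP, and 1 to 3 counts in AAV::eGFP libraries 3 to 5, so the sex of the mice and the vector are partly tied. The rod markers *Sag*, *Gnat1*, *Pde6b*, *Nrl* and *Nr2e3* summed to 13401 to 20201 CPM in the retinas but to 1.28 to 2.60 CPM in the 661W libraries, so the line held next to none of these rod transcripts.

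With eGFP, the 661W cells held far more mRNA of nearly all 40 genes than the retina. In a fit of all 18 libraries, 38 of the 40 genes were higher in the eGFP cells than in the AAV::eGFP retinas (limma adjusted p under 0.05), beside 40.9% of all genes tested, and 2 were lower, beside 50.9% of all genes. Source, strain and experiment cannot be told apart in this comparison. Both genes that were lower in the cells are CDK inhibitors. *Cdkn1b*, which codes for p27, stood at 18.3 CPM per kb of exon in the cells and at 32.9 CPM per kb in the retina (log2 difference -0.95, SE 0.05, limma adjusted p = 1.0e-12). *Cdkn1c*, which codes for p57, had 2 to 6 counts in each cell library and 409 to 586 counts in each retinal library, which corresponds to 0.119 and 15.8 CPM per kb with eGFP. The third inhibitor, *Cdkn1a*, went the other way, with 43.0 CPM per kb in the cells and 0.989 in the retina (log2 difference 5.27, SE 0.47, limma adjusted p = 2.3e-09).

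Among the genes that promote the cycle, the sliding clamp *Pcna* had the highest level per length in the eGFP cells (152 CPM per kb) and also in the AAV::eGFP retinas (18.9 CPM per kb). *Ccnd1*, the D-type cyclin on the list, was the member with the smallest significant excess in the cells, at 15.7 against 9.33 CPM per kb (log2 difference 0.64, SE 0.05, limma adjusted p = 1.2e-09). *Rrm2*, the small subunit of ribonucleotide reductase, had the largest excess, at 125 against 0.409 CPM per kb (log2 difference 8.33, SE 0.99, limma adjusted p = 1.8e-07). The lowest retinal level was that of *E2f8*, an atypical E2F that represses cell cycle genes, at 0.0777 CPM per kb with 2 to 7 counts per library. The plot of levels in both sources shows these 40 genes together.

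**Figure D1:**
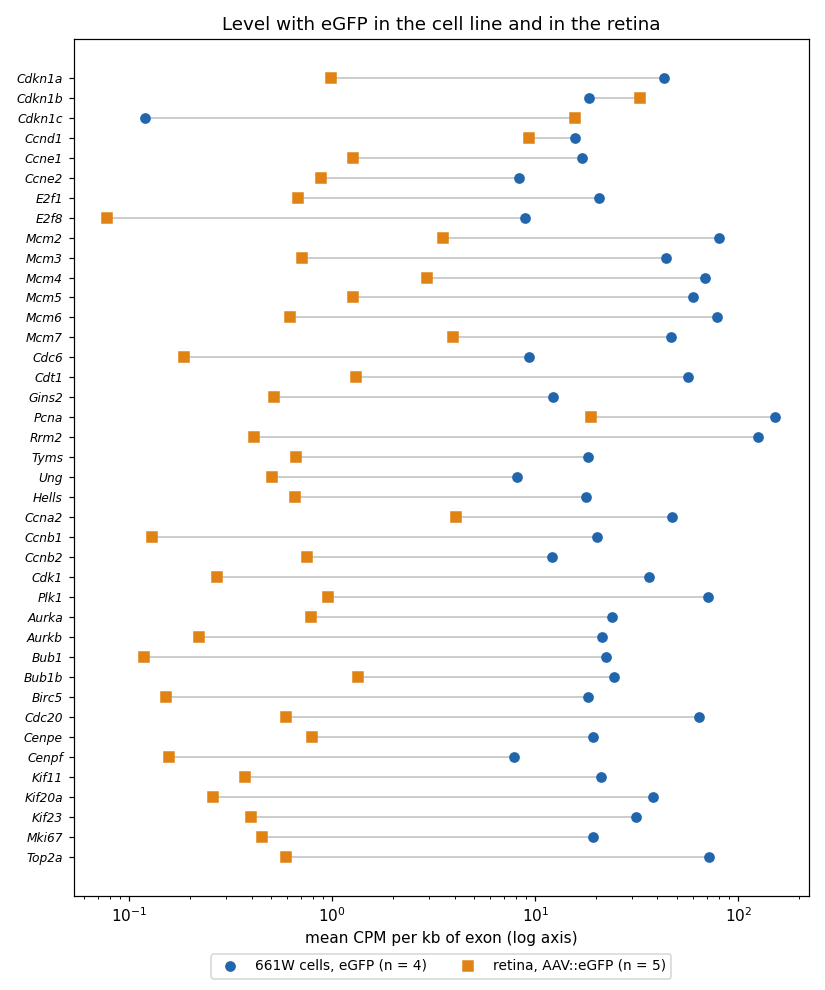
Mean level of each of the 40 genes with eGFP in the 661W cells (blue circles, n = 4 libraries) and in the retina (orange squares, n = 5 libraries), in CPM per kb of exon on a log axis. The circle lies to the right of the square for 38 genes, and to the left for Cdkn1b (18.3 against 32.9) and Cdkn1c (0.119 against 15.8).

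In 661W cells at 20 h, most proliferation genes differed little in log2FC between *nsHif1a* and eGFP. The main fit does not take the replicate sets into account. Fits that do, in which several members passed, are described further on. Of the 39 members that passed the filter on low counts (all but *Cdkn1c*), 10 were higher and 29 lower with *nsHif1a*, with a median log2FC of -0.04 beside -0.0013 over all 15962 genes tested. None passed the test, which throughout means that limma gave an adjusted p-value under 0.05 after Benjamini-Hochberg (BH) adjustment over all genes tested. The background was 2.06% of all genes passing upward and 0.426% downward. At an unadjusted p-value under 0.05 there were 2 members higher and 2 lower, beside 20.7% of all genes in either direction. edgeR's quasi-likelihood test also called 0 members, and DESeq2 called 1, *Ccne1*. The counts changed in 3 of the 8 fits with 1 library left out. Such a fit holds the replicate sets in unequal numbers in the groups, so its estimate also takes in differences between the sets. Without *nsHif1a* library 3 there were 3 members past the test upward and 5 downward, without *nsHif1a* library 4 there were 3 and 3, and without eGFP library 1 there were 0 and 1. The share of all genes past the test was not counted in these fits. Passes in them, here and for single genes below, therefore cannot be set against a background. The effect sizes were small for most members, and outside *Rrm2* the log2FC ran from -0.23 to 0.21. The plot of log2FC values and their intervals shows them for the cells and the retina.

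**Figure D2:**
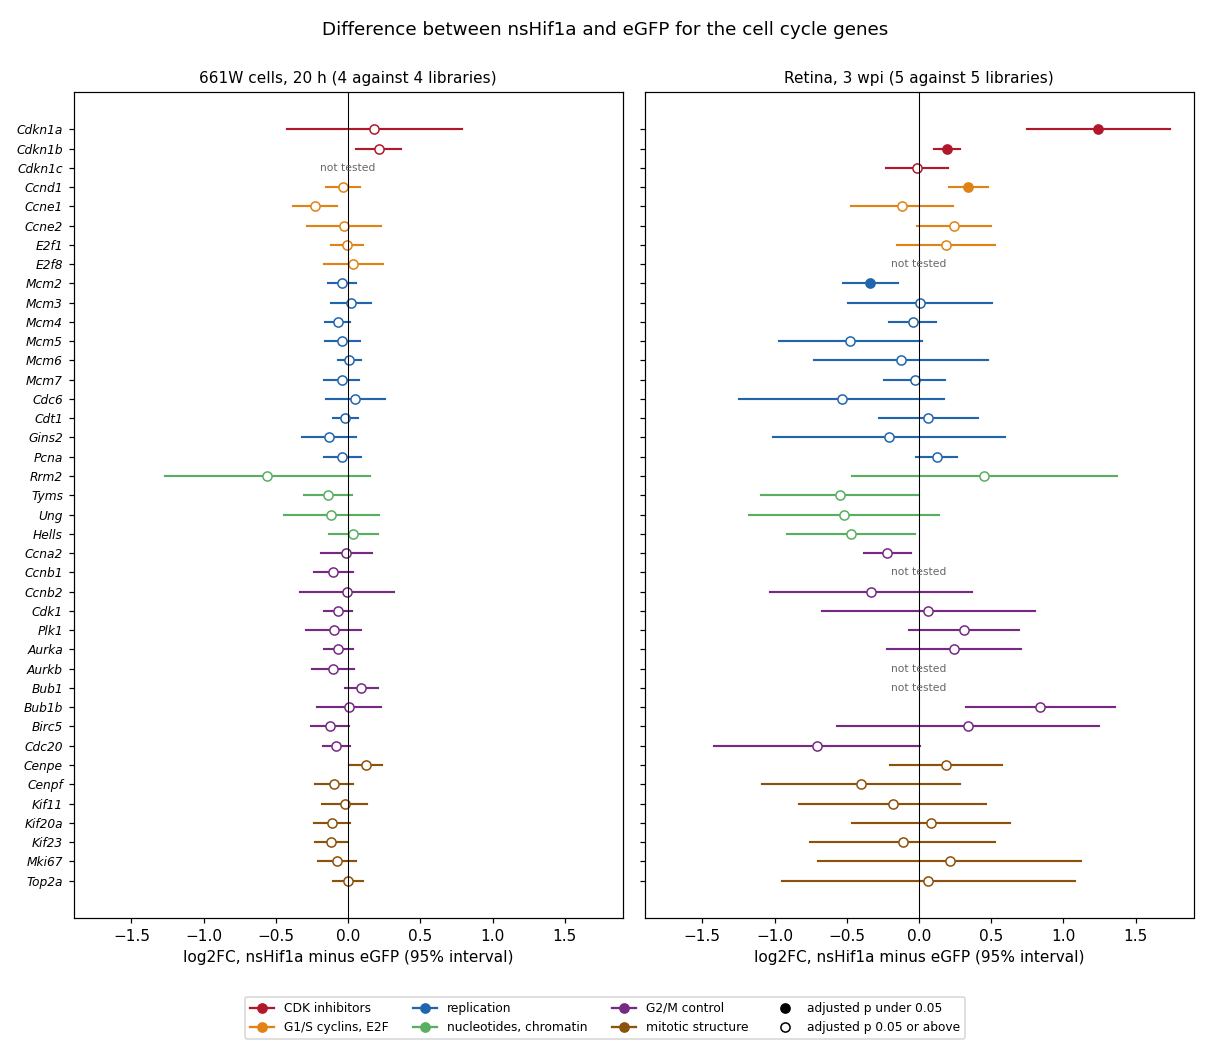
Log2FC between nsHif1a and eGFP with its 95% interval for each gene, in 661W cells (left, 4 against 4 libraries) and in the retina (right, 5 against 5 libraries), coloured by role. Filled points passed the test, which holds for 0 genes in the cells and for Cdkn1a, Cdkn1b, Ccnd1 and Mcm2 in the retina.

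*Cdkn1a* codes for p21, the inhibitor that p53 is best known to induce. It was at 163, 166, 282 and 286 CPM in eGFP libraries 1 to 4 and at 186, 194, 340 and 326 CPM in *nsHif1a* libraries 1 to 4. Replicates 3 and 4 were the high ones in both groups, and within each set of replicates both *nsHif1a* libraries lay above both eGFP libraries, although the groups as a whole overlapped. The log2FC was 0.18 (SE 0.27, limma adjusted p = 0.75). When replicate numbers entered the fit as blocks, the estimate of 0.22 passed the test (limma adjusted p = 0.047), which made *Cdkn1a* the 1 member called in that fit, beside 1.14% of all genes, and it also passed with the replicate sets as a covariate (0.22, SE 0.03, limma adjusted p = 0.0037). With 1 library left out and no block, the log2FC of *Cdkn1a* ran from -0.14 (without *nsHif1a* library 3) to 0.58, with no call in any of the 8 fits.

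*Cdkn1b* was at 86.4, 83.6, 84.1 and 79.4 CPM with eGFP and at 108, 103, 88.0 and 86.7 CPM with *nsHif1a*. Every *nsHif1a* library lay above every eGFP library, and *nsHif1a* libraries 1 and 2 were the highest. Among the 39 members this was the only one with groups apart in this direction, beside 7.51% of all genes. The log2FC was 0.21 (SE 0.07, limma adjusted p = 0.14). It passed with the sets as a covariate (limma adjusted p = 0.030) and without *nsHif1a* library 3 or 4 (0.32 both times, limma adjusted p = 0.0018 and 0.0015). *Cdkn1c* had 2 to 5 counts with eGFP and 4 to 6 with *nsHif1a* (0.24, 0.13, 0.24 and 0.38 CPM, and 0.23, 0.42, 0.29 and 0.24 CPM), near the limit of 3 counts, and a difference was not detectable at this depth.

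The listed G1/S cyclins all had a negative log2FC in the main fit, which was near 0 for *Ccnd1* and *Ccne2*. *Ccnd1*, which pairs with CDK4 and CDK6, was at 59.3, 63.7, 59.2 and 60.7 CPM with eGFP and at 60.3, 63.0, 55.0 and 58.0 CPM with *nsHif1a*. These ranges overlapped, with a log2FC of -0.03 (SE 0.05, 95% interval -0.15 to 0.08, limma adjusted p = 0.75). *Ccne1*, whose cyclin activates CDK2 at the start of S phase, was at 44.4, 49.3, 51.8 and 52.5 CPM with eGFP and at 43.1, 41.4, 42.0 and 41.8 CPM with *nsHif1a*. All 4 *nsHif1a* libraries lay below the lowest eGFP library, as was so for 2 of the 39 members (*Ccne1* and *Mcm4*), beside 6.11% of all genes. The log2FC of *Ccne1* was -0.23 (SE 0.07, limma adjusted p = 0.0997). It passed with DESeq2 (adjusted p = 0.029), with the set covariate (limma adjusted p = 0.022), and without eGFP library 1 or *nsHif1a* library 3 or 4 (limma adjusted p = 0.035, 0.025 and 0.026). Its relative *Ccne2* was at 44.1, 43.0, 47.2 and 45.3 CPM with eGFP and at 37.5, 37.2, 52.4 and 53.2 CPM with *nsHif1a*. *nsHif1a* libraries 1 and 2 were the lowest of the 8 and libraries 3 and 4 the highest, so the log2FC over all libraries was near 0 (-0.03, SE 0.11, limma adjusted p = 0.91). Without *nsHif1a* library 3 or 4 it passed, at -0.24 both times (limma adjusted p = 0.033 and 0.026). *E2f1*, which activates the genes of S phase, was at 65.0 to 65.5 CPM with eGFP and at 60.9 to 70.5 CPM with *nsHif1a*.

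The genes of DNA replication differed little. All 10 differed by a log2FC between -0.13 and 0.05, with 3 higher, 7 lower and 0 past the test. *Mcm2*, a subunit of the helicase that unwinds DNA at the fork, was at 275, 280, 262 and 265 CPM with eGFP and at 273, 268, 251 and 257 CPM with *nsHif1a*. Both groups were slightly lower in replicates 3 and 4 and overlapped (log2FC -0.04, SE 0.04, limma adjusted p = 0.64). *Pcna*, of whose 50-base words 17.4% occur in other annotated transcripts, mainly those of *Pcna-ps2*, so that its counts are uncertain, was at 215, 232, 228 and 246 CPM with eGFP and at 210, 226, 224 and 239 CPM with *nsHif1a*. Its groups overlapped as well (log2FC -0.04, SE 0.06, limma adjusted p = 0.73).

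*Rrm2* (chr12:24757811-24764145 of GRCm39, plus strand), which makes deoxyribonucleotides for S phase, had the lowest log2FC of the list. It was at 263, 260, 407 and 402 CPM with eGFP and at 141, 151, 358 and 361 CPM with *nsHif1a*. In each set both *nsHif1a* libraries lay below both eGFP libraries, but *nsHif1a* libraries 3 and 4 were above eGFP libraries 1 and 2. The log2FC was -0.56 (SE 0.32, limma adjusted p = 0.35), with the set covariate it was -0.48 (limma adjusted p = 0.026), and with the replicate block -0.46 (limma adjusted p = 0.12). Without *nsHif1a* library 3 or 4 it passed, at -1.08 both times (limma adjusted p = 0.0037 and 0.0035), and without *nsHif1a* library 1 or 2 its sign turned, to 0.07 and 0.08 (limma adjusted p = 0.87 and 0.86). In each of these fits the replicate sets were unequal between the groups. Between the sets *Rrm2* differed by 0.63 with eGFP and 1.30 with *nsHif1a* on the log2 scale. *Ung*, a uracil-DNA glycosylase of base excision repair, was at 23.6, 26.4, 17.2 and 19.9 CPM with eGFP and at 20.03, 22.2, 18.1 and 18.5 CPM with *nsHif1a*. Those groups overlapped (log2FC -0.12, SE 0.15, limma adjusted p = 0.69), and eGFP libraries 1 and 2 were the highest of the 8.

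Among the regulators of G2 and mitosis, 2 of 11 were higher and 9 lower, with log2FC values from -0.12 to 0.09 and 0 past the test. *Cdk1*, the kinase that starts mitosis, was at 193, 188, 197 and 182 CPM with eGFP and at 189, 181, 175 and 179 CPM with *nsHif1a* (log2FC -0.07, SE 0.04, limma adjusted p = 0.40). Its partner *Ccnb1*, of whose 50-base words 18.2% are shared, mainly with the pseudogene *Ccnb1-ps*, was at 54.3, 56.1, 52.0 and 49.8 CPM with eGFP and at 52.2, 51.1, 47.1 and 46.8 CPM with *nsHif1a* (log2FC -0.10, SE 0.06, limma adjusted p = 0.37). Within each set *Ccnb1* was lower in both *nsHif1a* libraries, while the groups overlapped for both genes. Of the 7 genes of mitotic structure, 1 was higher and 6 were lower, again with 0 past the test. *Mki67*, which codes for the proliferation marker Ki-67 that coats mitotic chromosomes, was at 203, 188, 200 and 203 CPM with eGFP and at 187, 170, 207 and 195 CPM with *nsHif1a* (log2FC -0.08, SE 0.06, 95% interval -0.21 to 0.06, limma adjusted p = 0.50). Of the fits with 1 library left out, it passed in that without *nsHif1a* library 3 (-0.15, limma adjusted p = 0.047), and it also passed within replicates 1 and 2 (-0.13, limma adjusted p = 0.037), a fit described further on. *Top2a*, the topoisomerase that disentangles chromosomes, was at 419, 401, 394 and 401 CPM with eGFP and at 426, 419, 379 and 385 CPM with *nsHif1a* (log2FC -0.00021, SE 0.05, 95% interval -0.11 to 0.11, limma adjusted p = 0.998). The groups of both genes overlapped. In bulk RNA such as this, fewer cells in a phase and less RNA per cell cannot be told apart.

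**Figure D3:**
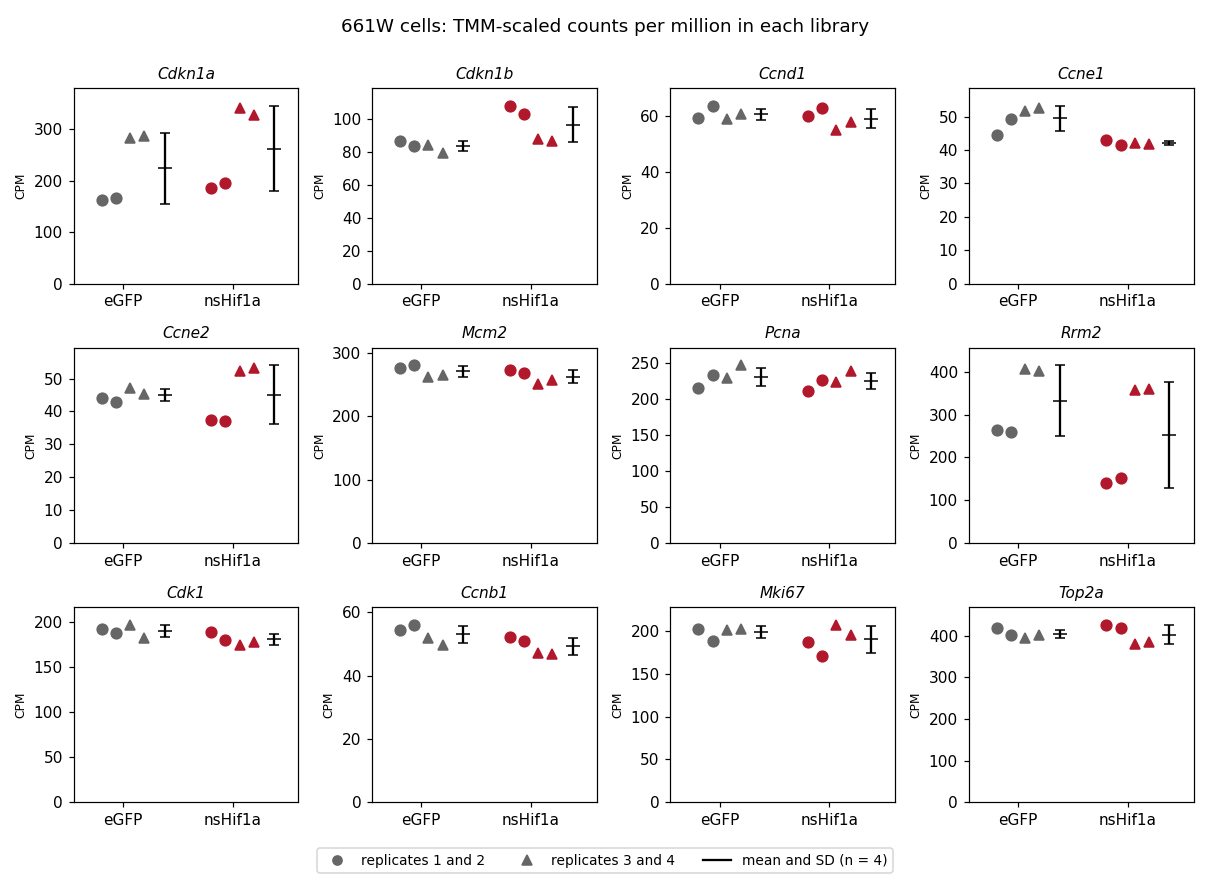
CPM of 12 genes in each 661W library, with eGFP in grey and nsHif1a in red, circles for replicates 1 and 2, triangles for replicates 3 and 4, and the mean with SD (n = 4) in black. Cdkn1a and Rrm2 are higher in the triangles of both groups, whereas Mcm2, Cdk1, Mki67 and Top2a stay within narrow ranges.

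The replicate sets of the cells stood apart most in *Rrm2* and *Cdkn1a*. The sets were recognised in these libraries, so their differences are described without a test. *Cdkn1a* was higher in replicates 3 and 4 by a log2 difference of 0.79 with eGFP and 0.81 with *nsHif1a*, and *Rrm2* by 0.63 and 1.30. Both had libraries 3 and 4 above libraries 1 and 2 in each group, as had *Ccne2*, with 0.09 and 0.50. In the opposite direction, 19 of the 39 members had libraries 3 and 4 below libraries 1 and 2 in both groups, beside 14.0% of all genes, whereas the 3 in the first direction stand beside 15.3%. Past a log2 difference of 0.5 there were 2 members with eGFP, beside 8.21% of all genes, and 2 with *nsHif1a*, beside 18%, in each case *Cdkn1a* and *Rrm2*.

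The members that were lower in replicates 3 and 4 included regulators and machinery of S phase and mitosis, and their differences were small. In the eGFP cells 33 of the 39 members were lower in replicates 3 and 4, with a median log2 difference of -0.08 beside 0.0026 over all genes, and the median with *nsHif1a* was -0.13 beside -0.000037. *Ung* had the third largest absolute difference with eGFP, at -0.43, and -0.20 with *nsHif1a*. The following members were chosen after their values were seen. *Ccnb2*, a B-type cyclin, differed by -0.42 and -0.25, *Bub1b*, a kinase of the spindle checkpoint, by -0.25 and -0.32, and *Plk1*, the Polo-like kinase, by -0.24 and -0.22. *Mki67* was an exception, at 0.05 and 0.17, with overlapping libraries in the eGFP cells. The summed CPM of the 18 genes of G2, mitosis and mitotic structure was 2469 and 2409 in eGFP libraries 1 and 2, 2294 and 2283 in eGFP libraries 3 and 4, 2389 and 2366 in *nsHif1a* libraries 1 and 2, and 2212 and 2203 in *nsHif1a* libraries 3 and 4. Both libraries of replicates 3 and 4 were thus lower in each group, by more than *nsHif1a* and eGFP differed within a set.

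**Figure D4:**
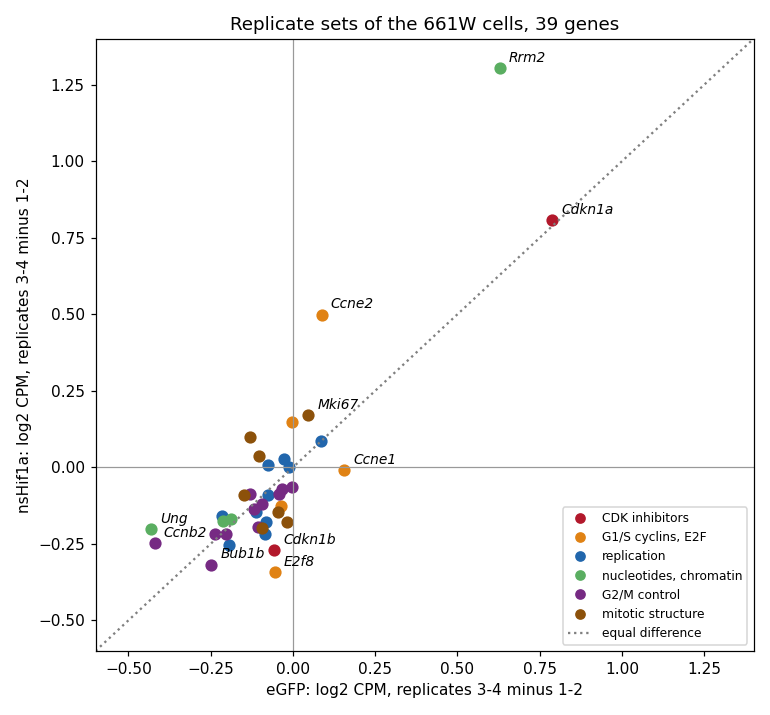
Log2 difference between replicates 3-4 and 1-2 of the 661W cells, with eGFP on the horizontal and nsHif1a on the vertical axis, for the 39 genes tested, coloured by role. Most points lie just below 0 on both axes, Cdkn1a lies near the line of equal difference at 0.79 and 0.81, and Rrm2 lies above it at 0.63 and 1.30.

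Within the sets, the difference between *nsHif1a* and eGFP was estimated in 1 fit with the spread pooled over the 8 libraries, which leaves 2 libraries per group in each set. These p-values measure how little libraries within a set differed, and the labels do not say whether such libraries were separate cultures. Within replicates 1 and 2, 3 members passed upward (*Cdkn1a*, *Cdkn1b* and *Cenpe*) and 12 downward, beside 18.1% and 18% of all genes. Within replicates 3 and 4, 2 passed upward (*Cdkn1a* and *Ccne2*) and 2 downward (*Ccne1* and *Rrm2*), beside 4.27% and 2.17%. *Cdkn1a* and *Rrm2* passed in both sets and in the same direction. For *Cdkn1a* the log2FC was 0.21 in replicates 1 and 2 (SE 0.04, limma adjusted p = 1.7e-04) and 0.23 in replicates 3 and 4 (SE 0.03, limma adjusted p = 6.0e-05). For *Rrm2* it was -0.85 (SE 0.04, limma adjusted p = 3.2e-13) and -0.17 (SE 0.03, limma adjusted p = 7.8e-04).

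*Ccne2* passed in both sets with opposite signs, at -0.22 in replicates 1 and 2 (SE 0.06, limma adjusted p = 0.0068) and 0.19 in replicates 3 and 4 (SE 0.05, limma adjusted p = 0.046). *Cdkn1b* passed in replicates 1 and 2 (0.31, SE 0.05, limma adjusted p = 1.5e-05) and was at 0.09 in replicates 3 and 4 (limma adjusted p = 0.31), and *Ccne1* passed in replicates 3 and 4 (-0.31, SE 0.06, limma adjusted p = 0.0026) and was at -0.14 in replicates 1 and 2 (limma adjusted p = 0.086). Whether these effects differed between the sets was not tested. With the sets as a covariate over all 8 libraries, 2 members passed upward (*Cdkn1a* and *Cdkn1b*) and 5 downward (*Ccne1*, *Rrm2*, *Tyms*, *Plk1* and *Kif20a*), beside 7.77% and 4.85% of all genes. The last 3 fell by 0.14, 0.11 and 0.11 on the log2 scale (limma adjusted p = 0.039, 0.048 and 0.039), and with *Cenpe* they were named after their values were seen. *Mcm2*, *Pcna*, *Cdk1*, *Ccnb1* and *Top2a* passed in none of these fits. The microglia markers *Aif1*, *Cx3cr1*, *P2ry12*, *Tmem119*, *Csf1r*, *C1qa* and *Trem2*, of which 2 of 7 passed the filter in the cells, summed to 44.8 and 43.4 CPM in *nsHif1a* libraries 1 and 2, where *Rrm2* and *Ccne2* were lowest, and to 16.5 to 22.4 CPM in the other 6. Most of each sum was *Tmem119*, which reached 43.5 CPM, while the log2FC of *Csf1r* within replicates 1 and 2 was -2.35 and *C1qa* and *Trem2* had 0 counts in every library. Their part in the result was not tested.

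Further genes of the same processes were counted in the cells. Of 38 further replication genes 19 were higher and 19 lower, and of 45 further mitosis genes 13 were higher and 32 lower. In both lists 0 genes passed the test with limma. At an unadjusted p-value under 0.05, 0 were higher and 4 lower in the first list. In the second there were 3 and 3, and the share over all genes was 20.7% in either direction. Of 24 further regulators of G1 that were tested, 3 passed upward and 0 downward, beside 2.06% and 0.426% of all genes. *Rb1*, the retinoblastoma gene, was at 8.75 to 10.6 CPM with eGFP and at 12.9 to 16.9 CPM with *nsHif1a* (log2FC 0.60, SE 0.11, limma adjusted p = 0.026). *Ccng2*, an atypical cyclin associated with cell cycle arrest, was at 24.9 to 30.7 CPM and at 40.6 to 47.5 CPM (log2FC 0.67, SE 0.08, limma adjusted p = 0.0033). The third gene was *Ccnd2*, a D-type cyclin, with a log2FC of 0.39 (SE 0.08, limma adjusted p = 0.037). The groups of all 3 genes did not overlap, and with the replicate block *Rb1* and *Ccnd2* were no longer called (limma adjusted p = 0.079 and 0.077).

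Of 17 p53 target genes tested besides *Cdkn1a*, 10 were higher and 7 lower with *nsHif1a*, with a median log2FC of 0.04. The test was passed by 3 upward and 0 downward, beside 2.06% and 0.426% of all genes. *Gadd45a*, a growth arrest gene, was at 14.95 to 17.2 CPM with eGFP and at 23.3 to 41.4 CPM with *nsHif1a* (log2FC 1.003, SE 0.17, limma adjusted p = 0.023). *Bbc3*, which codes for the apoptosis inducer PUMA, rose by 0.83 (SE 0.14, limma adjusted p = 0.018) and *Sesn2*, a stress sensor upstream of mTORC1, by 0.74 (SE 0.12, limma adjusted p = 0.014). With the replicate block *Gadd45a* and *Bbc3* were no longer called (limma adjusted p = 0.061 and 0.069). At an unadjusted p-value under 0.05 there were 8 of the 17 higher and 2 lower, beside 20.7% of all genes in either direction. Groups were apart for 7 upward, beside 7.51% of all genes, and for 1 downward, beside 6.11%.

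In the retina at 3 wpi, 4 members passed the test, and 3 of them rose with AAV::*nsHif1a*. The CDK inhibitors *Cdkn1a* and *Cdkn1b* and the cyclin *Ccnd1* were higher, and the helicase subunit *Mcm2* was lower. Of the 40 members 36 passed the filter on low counts, and *E2f8*, *Ccnb1*, *Aurkb* and *Bub1*, with 1 to 20 counts per library, did not. The 3 rises stand beside 3.31% of all 18859 genes tested, and the 1 fall beside 2.47%. Of the 36 members 18 were higher and 18 lower, with a median log2FC of -0.0034 beside -0.0021 over all genes. Groups were apart for 3 members, all higher with AAV::*nsHif1a*, beside 3.25% of all genes, and for 0 members in the other direction, beside 2.69%. At an unadjusted p-value under 0.05 there were 4 members higher and 4 lower, beside 21.7% of all genes in either direction. Past the study's further limit of a log2FC of 0.5 in size there was 1 member, *Cdkn1a*, beside 1.99% of all genes.

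Of the 4 called genes, *Cdkn1a*, *Cdkn1b* and *Mcm2* are shown with the 250 bases before the start of their canonical transcript, since HIF1 binds short core motifs. These 3 windows do not stand for the called genes as a group. The windows are from GRCm39 with the gencode M39 annotation, are read on the strand of the gene and hold no annotated exon of that strand, and that of *Cdkn1a* lies inside the annotated gene, between exons of a longer transcript. Capitals mark each match, on either strand, to the HIF core (ACGTG or GCGTG), an E2F site (TTCCCGC, also its variant TTGGCGC, its variant TTCGCGC and its variant TTGCCGC), the CHR element (TTTGAA) or the CCAAT box.
Cdkn1a (chr17:29312488-29312737, plus strand): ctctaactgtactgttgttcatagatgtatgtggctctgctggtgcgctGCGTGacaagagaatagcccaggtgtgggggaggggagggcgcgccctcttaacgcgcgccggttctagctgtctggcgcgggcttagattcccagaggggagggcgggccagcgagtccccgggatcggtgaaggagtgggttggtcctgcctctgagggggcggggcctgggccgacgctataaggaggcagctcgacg
Cdkn1b (chr6:134897114-134897363, plus strand): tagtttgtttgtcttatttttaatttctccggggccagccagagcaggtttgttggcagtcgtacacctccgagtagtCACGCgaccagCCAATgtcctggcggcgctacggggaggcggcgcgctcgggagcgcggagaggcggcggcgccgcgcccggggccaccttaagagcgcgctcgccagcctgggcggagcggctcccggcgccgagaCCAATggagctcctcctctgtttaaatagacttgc
Mcm2 (chr6:88875763-88876012, minus strand): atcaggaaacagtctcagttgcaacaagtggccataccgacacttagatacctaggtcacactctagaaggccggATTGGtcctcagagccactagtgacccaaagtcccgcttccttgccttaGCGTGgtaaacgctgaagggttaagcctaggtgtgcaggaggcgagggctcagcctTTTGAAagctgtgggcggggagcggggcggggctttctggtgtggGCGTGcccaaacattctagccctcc

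*Cdkn1a* held a HIF core whose first base stands at -201 from the start, *Cdkn1b* held 1 at -172 and *Mcm2* held 2, at -126 and -25. The HIF core was present in 26 of the 40 members (65%) and in 8978 of 21723 protein-coding promoters of the same length (41.3%), so the motif is common. E2F sites were in 8 members (20%) beside 8.93% of all promoters, and the CHR element in 7 of the 18 genes of G2, mitosis and mitotic structure (38.9%) beside 15.5%. A CCAAT box was in 21 members (52.5%) beside 36.5%. A match says only that these letters stand in the window.

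*Cdkn1a* was at 4.20, 5.75, 5.45, 5.48 and 4.89 CPM in AAV::eGFP libraries 1 to 5 and at 6.75, 13.3, 10.7, 14.8 and 18.2 CPM in AAV::*nsHif1a* libraries 1 to 5. Every AAV::*nsHif1a* library lay above every AAV::eGFP library, with library 1 the lowest of its group and library 5 the highest. The log2FC was 1.24 (SE 0.23, limma adjusted p = 0.0083), and the call held with each library left out in turn, at 1.13 to 1.39. *Cdkn1b* was at 151, 148, 155, 151 and 145 CPM with AAV::eGFP and at 158, 179, 165, 172 and 178 CPM with AAV::*nsHif1a*. Its groups did not overlap either (log2FC 0.19, SE 0.04, limma adjusted p = 0.018). The call was lost without AAV::eGFP library 5 (0.18, limma adjusted p = 0.060) and without AAV::*nsHif1a* library 2 (0.17, limma adjusted p = 0.056). With the replicate block *Cdkn1b* was not called either (0.18, limma adjusted p = 0.11), whereas *Cdkn1a* was (1.25, limma adjusted p = 0.0086). *Cdkn1c* was at 31.6, 32.1, 28.03, 38.7 and 31.6 CPM with AAV::eGFP and at 36.9, 29.3, 35.8, 33.5 and 26.2 CPM with AAV::*nsHif1a*. These overlapped throughout (log2FC -0.01, SE 0.10, 95% interval -0.23 to 0.20, limma adjusted p = 0.95).

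*Ccnd1* was at 38.6, 35.98, 32.3, 37.4 and 35.8 CPM with AAV::eGFP and at 41.4, 45.2, 48.9, 43.0 and 49.8 CPM with AAV::*nsHif1a*. The lowest AAV::*nsHif1a* library lay above the highest AAV::eGFP library (log2FC 0.34, SE 0.06, limma adjusted p = 0.0075), and the call held with each library left out, at 0.31 to 0.37. With the replicate block the call was lost (0.36, limma adjusted p = 0.057). *Ccne1* was at 3.67, 3.94, 3.90, 3.96 and 3.01 CPM with AAV::eGFP and at 4.65, 3.15, 3.19, 2.45 and 4.04 CPM with AAV::*nsHif1a*. *Ccne2* was at 4.51, 5.36, 5.14, 4.76 and 4.14 CPM with AAV::eGFP and at 4.65, 5.80, 5.11, 6.27 and 6.29 CPM with AAV::*nsHif1a*. Both cyclin E genes overlapped between the groups, with a log2FC of -0.12 for *Ccne1* (SE 0.16, limma adjusted p = 0.72) and 0.24 for *Ccne2* (SE 0.12, limma adjusted p = 0.25).

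*Mcm2* was at 12.7, 11.9, 11.9, 10.4 and 12.05 CPM with AAV::eGFP and at 9.60, 9.39, 9.29, 7.84 and 10.7 CPM with AAV::*nsHif1a*. AAV::eGFP library 4, at 10.4 CPM, fell below AAV::*nsHif1a* library 5, so the groups overlapped in this pair. The log2FC was -0.34 (SE 0.09, limma adjusted p = 0.043), which passed in 2 of the 10 fits with 1 library left out (without AAV::eGFP library 4 and without AAV::*nsHif1a* library 5) and ranged from -0.39 to -0.29. The call was also lost with edgeR's quasi-likelihood test (adjusted p = 0.077), with DESeq2 (adjusted p = 0.060), without sample weights (limma adjusted p = 0.070) and without the filter on low counts (limma adjusted p = 0.13). The replicate block removed it too (limma adjusted p = 0.080). None of the other 5 subunits of the helicase, *Mcm3* to *Mcm7*, passed, and their log2FC values ran from -0.47 to 0.0073. *Pcna* was at 28.4, 28.4, 31.7, 27.4 and 27.6 CPM with AAV::eGFP and at 28.3, 30.05, 32.1, 30.1 and 36.2 CPM with AAV::*nsHif1a* (log2FC 0.12, SE 0.07, limma adjusted p = 0.30).

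Most of the remaining S phase and mitosis members were at low CPM in the retina, and none of those tested passed. *Rrm2* had 4 to 34 counts per library (1.38, 2.07, 0.25, 0.86 and 0.90 CPM in the controls, and 0.83, 1.45, 1.13, 0.95 and 2.181 CPM), with a log2FC of 0.45 whose 95% interval ran from -0.47 to 1.37. *Ung* was at 1.15, 1.55, 1.05, 1.45 and 1.51 CPM and at 0.83, 0.50, 1.35, 1.09 and 1.73 CPM (log2FC -0.52, SE 0.30, limma adjusted p = 0.35). Neither gene separated the groups. *Cdk1* was at 1.53, 2.33, 1.24, 0.93 and 1.05 CPM with AAV::eGFP and at 0.53, 1.51, 1.49, 1.30 and 2.57 CPM with AAV::*nsHif1a* (log2FC 0.06, SE 0.34, limma adjusted p = 0.93). *Ccnb1*, with 1 to 15 counts, was at 0.54, 0.52, 0.25, 0.26 and 0.15 CPM with AAV::eGFP and at 0.08, 0.19, 0.36, 0.27 and 0.96 CPM with AAV::*nsHif1a*, so several libraries lay near or below the level of 3 counts.

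*Mki67* was at 6.72, 9.43, 1.86, 2.58 and 2.56 CPM with AAV::eGFP and at 2.32, 4.54, 3.90, 3.48 and 9.43 CPM with AAV::*nsHif1a*. *Top2a* was at 4.74, 6.01, 1.24, 1.78 and 2.71 CPM with AAV::eGFP and at 1.05, 2.58, 3.97, 2.32 and 7.76 CPM with AAV::*nsHif1a*. For both genes AAV::eGFP libraries 1 and 2 and AAV::*nsHif1a* library 5 were the highest, and the groups overlapped over nearly their whole range. The log2FC was 0.21 for *Mki67* (95% interval -0.70 to 1.121, limma adjusted p = 0.82) and 0.06 for *Top2a* (95% interval -0.95 to 1.08, limma adjusted p = 0.96). With intervals this wide, a difference in either gene was not detectable at this depth and spread. *Bub1b*, chosen after its values were seen, came closest to a further call. It was at 6.19, 6.85, 3.47, 5.09 and 3.76 CPM with AAV::eGFP and at 5.47, 9.32, 7.24, 9.68 and 14.0 CPM with AAV::*nsHif1a* (log2FC 0.84, SE 0.24, limma adjusted p = 0.060). All but AAV::*nsHif1a* library 1 lay above the AAV::eGFP range, and DESeq2 called it (adjusted p = 0.015), as did limma in 3 of the 10 fits with 1 library left out, namely without AAV::eGFP library 1 or 2 or AAV::*nsHif1a* library 1 (limma adjusted p = 0.049, 0.034 and 0.032).

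**Figure D5:**
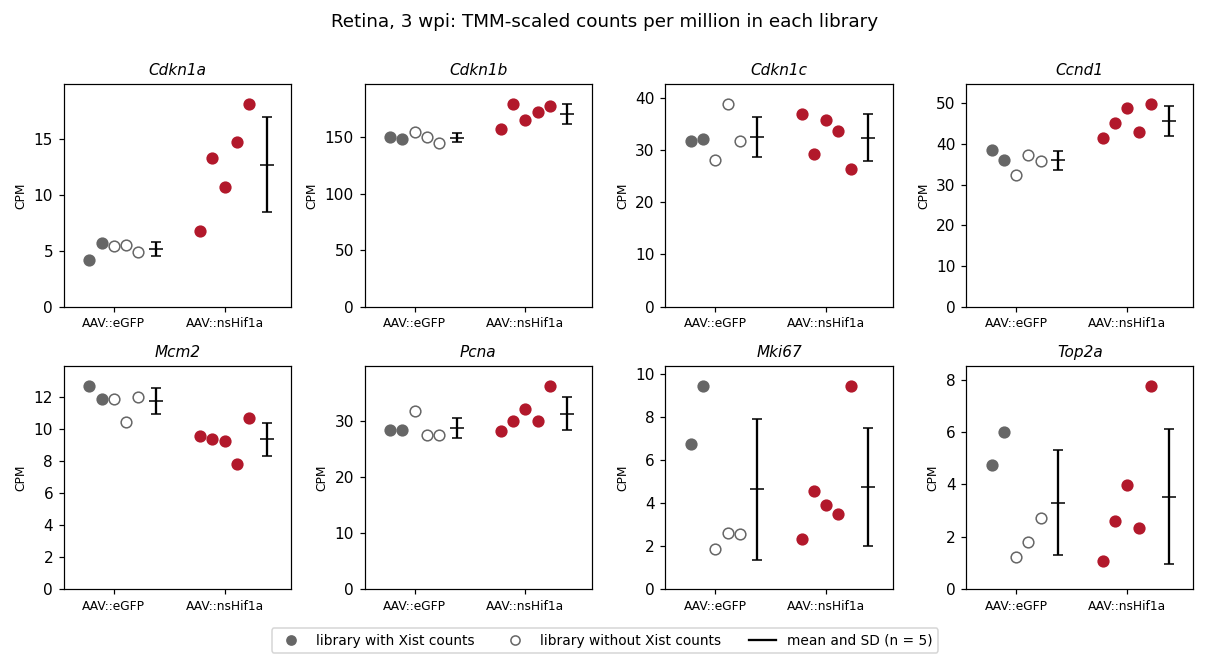
CPM of 8 genes in each retinal library, with AAV::eGFP in grey and AAV::nsHif1a in red, filled circles for libraries with Xist counts, open circles for those without, and the mean with SD (n = 5) in black. The red points lie above all grey points for Cdkn1a, Cdkn1b and Ccnd1, whereas Mki67 and Top2a overlap, with grey filled points and 1 red point highest.

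The retinal libraries differed in sex and in the mRNA of cell type markers, and these values stand beside the calls. With the *Xist* class as a covariate, none of the 4 calls was kept by limma. The estimates of the 4 called genes were then 1.28 for *Cdkn1a* (limma adjusted p = 0.060), 0.19 for *Cdkn1b* (0.086), 0.30 for *Ccnd1* (0.076) and -0.40 for *Mcm2* (0.085), so the directions stayed. With the *Xist* class in the model, *Mki67* was at -0.94 (limma adjusted p = 0.11) and *Top2a* at -0.89 (limma adjusted p = 0.28), a turn of sign against the estimates over all libraries. All 3 libraries without *Xist* counts belong to AAV::eGFP, so within that class the vectors cannot be compared.

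The microglia markers were higher in 7 of 7 genes, with 0 past the test, and summed to 24.2 to 122 CPM in the AAV::eGFP retinas and 43.4 to 119 CPM in the AAV::*nsHif1a* retinas. The sums of 122 CPM in AAV::eGFP library 2 and 119 CPM in AAV::*nsHif1a* library 5 were in the libraries with the most *Mki67*, whereas AAV::*nsHif1a* library 4, with a sum of 112 CPM, had 3.48 CPM of *Mki67*, and AAV::eGFP library 1, with 62.7 CPM, had 6.72 CPM. Endothelial markers were higher in 6 of 6 genes, with 1 past the test, and summed to 217 to 274 CPM and 257 to 327 CPM. Most of each sum was *Kdr*, with a mean of 208 CPM with AAV::eGFP and 250 CPM with AAV::*nsHif1a*. *Kdr* was also the endothelial marker that passed (log2FC 0.26, limma adjusted p = 0.049). Rod markers were lower in 5 of 5 genes, with 2 past the test, at 17644 to 20201 CPM and 13401 to 18146 CPM. The 6 γ-crystallin genes of the lens were higher in 6 of 6, with 0 past the test, at 634 to 2817 CPM and 920 to 18956 CPM. Without AAV::*nsHif1a* libraries 1, 3 and 4, which held the most γ-crystallin counts, *Cdkn1a* (1.61, limma adjusted p = 5.0e-04), *Cdkn1b* (0.26, limma adjusted p = 0.021), *Ccnd1* (0.40, limma adjusted p = 0.026) and *Bub1b* (1.24, limma adjusted p = 0.026) passed and *Mcm2* did not (-0.22, limma adjusted p = 0.47). That fit without lens-rich libraries leaves only AAV::*nsHif1a* libraries 2 and 5 in their group. It drops library 1, the lowest of the group for *Cdkn1a* and *Bub1b*, and sex stays partly tied to the vector. Of 4 Müller glia markers 2 were higher and 2 lower, and *Slc1a3* passed upward (log2FC 0.21, limma adjusted p = 0.030). Markers of the retinal pigment epithelium summed to 19.4 to 617 CPM with AAV::eGFP and 29.2 to 730 CPM with AAV::*nsHif1a*, with 0 past the test. The part of the microglia, endothelial, rod, Müller glia and pigment epithelium values in the calls was not tested.

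Of the other lists, the further replication genes were lower in 24 of 32 tested in the retina and the further mitosis genes in 25 of 34, with a median log2FC of -0.15 and -0.19 beside -0.0021 over all genes. In each list 1 gene passed downward, beside 2.47% of all genes, and 0 passed upward, beside 3.31%. Those were *Prim2*, a primase subunit (log2FC -0.43, limma adjusted p = 0.048), and *Mad2l1*, a spindle checkpoint protein (log2FC -0.41, limma adjusted p = 0.0070), which are named because the counts are this small. Of 23 further regulators of G1, 3 passed upward and 0 downward, beside the same shares of all genes. They were *Ccng2* (log2FC 0.47), which also passed in the cells, *E2f6* (0.44) and *Ccnd3* (0.25). Of 17 p53 targets, 4 passed upward and 1 downward, beside 3.31% and 2.47% of all genes. Those upward were *Sesn2* (0.46), *Phlda3* (0.39), *Plk2* (0.24) and *Mdm2* (0.18), and the gene downward was *Aen* (-0.24). With the replicate block *Plk2* kept its call (limma adjusted p = 0.044). *Sesn2*, *Phlda3*, *Mdm2* and *Aen* were then no longer called (limma adjusted p = 0.10, 0.12, 0.063 and 0.067). In these lists 0 of the genes that passed were past a log2FC of 0.5 in size.

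Tested directly over all 18 libraries, the effect of *nsHif1a* differed between retina and cells for 1 of the 40 members, beside 2.33% of all genes. *Ccnd1* rose more in the retina by a log2 difference of 0.40 (SE 0.08, limma adjusted p = 0.017, and 0.021 with the cell replicates as blocks). Without *nsHif1a* library 3 or 4 of the cells *Mcm2* passed as well (-0.32 both times, limma adjusted p = 0.038 and 0.043). For *Cdkn1a* the difference of 0.93 had a wide error (SE 0.58, limma adjusted p = 0.45), and with the block for the cells it passed, at 1.02 (limma adjusted p = 0.024). The effects on *Cdkn1b* differed by 0.02 (SE 0.08, limma adjusted p = 0.94), and those on *Mcm2* by -0.28 (SE 0.10, limma adjusted p = 0.14). The experiments also differed in vector, promoter, time after delivery and the rise of total *Hif1a* mRNA, which passed the test only in the cells. The study reports that its vectors transduced only part of the retinal area. The differences between the effects therefore cannot be assigned to the source alone. The *Xist* class, with which *Ccnd1* lost its call in the retina, was not part of this fit.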

How the data were processed

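The authors prepared stranded mRNA libraries, aligned the reads to the GRCm39 primary assembly with Rsubread and assigned them strand-specifically to genes of the gencode M36 basic annotation with featureCounts. The deposited values are whole-number counts per gene, with no normalization, and 78168 of the 78239 gene ids were matched to symbols in gencode M39. Libraries held 12898220 to 17809585 counts, which sets the counting error.

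The members and lists were chosen with earlier results of these data known. Genes were filtered with filterByExpr (minimum count 10), scaled by TMM and tested with limma (3.58.1) voom with sample quality weights and BH adjustment over all genes, in R 4.3.3. CPM values are scaled by TMM, and levels between genes are per kb of exon. The study's thresholds are an adjusted p-value under 0.05 and a log2FC above 0.5 in size. The code was tested on simulated data. Alternatives were edgeR (4.0.16), DESeq2 (1.42.0), other scaling factors, weights and filters, a replicate block and single libraries left out. Fits with the replicate sets, within them, with the *Xist* class or without lens-rich libraries also appear.

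Per-library values are given for the CDK inhibitors, *Ccnd1*, *Ccne1*, *Ccne2*, *Mki67*, *Top2a*, *Cdk1*, *Ccnb1*, *Mcm2*, *Pcna*, every member past the test and the 3 members with the largest difference between replicate sets in the eGFP cells. From other lists, genes past both thresholds are named. Other genes named were chosen after their values were seen. A further rod marker and a further promoter window are not reported here.

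Same-numbered cell libraries of both groups deviated together from their group means, with correlations across genes of 0.24, 0.23, 0.26 and 0.27. Correlations with other numbers reached 0.25 to 0.29, so the numbers cannot be told from the sets. In the retina the correlations were -0.15 to 0.14, and the samples share only a number.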

Additional observations from a re-analysis of the deposited data

Results flagged for a closer look

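*Mki67* in 661W cells with eGFP was at 188 CPM in library 2, and the other 3 libraries lay close together at 200 to 203 CPM, so library 2 stood apart from its group. *Pcna* in the retina was at 31.7 CPM in AAV::eGFP library 3, above the 27.4 to 28.4 CPM of the other 4. Among all 150 pairs of a member and a group, 10 had 1 library apart in this way, and chance gives about 1 in 20. Of these 10, 6 were high values in AAV::*nsHif1a* library 5, for *Mcm5*, *Cdc6*, *Cdt1*, *Ccna2*, *Cdc20* and *Kif20a*.

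The effect of *nsHif1a* on *Ccnd1* differed between the retina and the 661W cells, by a log2 difference of 0.40 in a test of the difference itself (SE 0.08, limma adjusted p = 0.017). The experiments also differed in vector, promoter, time after delivery and the rise of total *Hif1a* mRNA, and the *Xist* class was not in that fit.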

How the results depend on the processing

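In the cells, the count of members higher with *nsHif1a* (0) became 1 with the replicate block, 2 with the set covariate, 3 within replicates 1 and 2 and 2 within replicates 3 and 4, and 0 to 3 with 1 library left out. The count lower (0) became 1 with DESeq2, 5 with the set covariate, 12 within replicates 1 and 2 and 2 within replicates 3 and 4, and 0 to 5 with 1 library left out. In the retina, the count higher (3) became 4 with DESeq2 and without the 3 lens-rich libraries, where *Bub1b* passed as well, 1 with a log2FC of 0.5 in size required, 1 with the replicate block and 0 with the *Xist* class as a covariate or in the *Xist* libraries alone, and 2 to 4 with 1 library left out. The count lower (1) became 0 with edgeR, with DESeq2, without sample weights, without a filter, with the 0.5 limit, with the block, in both *Xist* fits and without the 3 lens-rich libraries, and was 0 to 1 with 1 library left out. The count of differing effects (1) became 2 with the block for the cells, and was 1 to 2 with 1 library left out.

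The following values changed sign. In the cells *Ccne2* was at 0.0063 with edgeR, 0.0037 with DESeq2, 0.025 with the replicate block, 0.0068 with the set covariate and 0.19 within replicates 3 and 4. *Top2a* was at 0.00095 with upper-quartile factors, 0.012 at a minimum count of 50 and 0.045 within replicates 1 and 2, where *Ccnd1* was at 0.0036. In the retina *Cdkn1c* was at 0.0040 without a filter, 0.026 with the replicate block, and 0.0094 and 0.013 with the *Xist* covariate and in the *Xist* libraries alone. In these 2 fits *Mki67* was at -0.94 and -0.93, *Top2a* at -0.89 and -0.88, *Cdk1* at -0.49 and -0.48 and *Rrm2* at -0.45 in both. With 1 library left out, the cells gave -0.14 to 0.58 for *Cdkn1a*, -0.090 to 0.017 for *Ccnd1*, -0.24 to 0.21 for *Ccne2*, -0.15 to 0.0091 for *Mki67*, -0.070 to 0.058 for *Top2a*, -0.074 to 0.0082 for *Pcna*, -1.08 to 0.080 for *Rrm2* and -0.30 to 0.049 for *Ung*. The retina gave -0.077 to 0.052 for *Cdkn1c*, -0.11 to 0.58 for *Mki67*, -0.22 to 0.36 for *Top2a* and -0.12 to 0.29 for *Cdk1*. The causes were not tested. Depth limits *Cdkn1c* in the cells and *E2f8*, *Ccnb1*, *Aurkb* and *Bub1* in the retina, which were not tested for low counts.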
